A study of Homo sapiens with 6 samples.

Results

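Long intergenic noncoding RNAs carry the provisional symbol LINC and a number until a function is described. The genes studied here are the LINC-numbered genes of HaCaT, a keratinocyte line from human skin that became immortal on its own in culture. Of 57281 genes in the deposited table, 378 had such a name, and 86 of them were selected on their level, a normalized read count of at least 10 in at least 3 of the 6 libraries. A further 133 had some reads but stayed under that minimum, and 159 were at 0 in all 6 libraries. All cultures received TGF-β1 (transforming growth factor β1) at 10 ng/ml. In 3 biological replicates it was given without silymarin, and in 3 together with silymarin (SM), a milk thistle seed extract rich in flavonolignans, at 31.25 µg/ml. Treatment lasted 24 h, and polyadenylated long RNA was sequenced. Both groups carried TGF-β1, and the effect of TGF-β1 itself was not analysed here.

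Transcripts of this class are made and often spliced and polyadenylated like messenger RNAs, but most lack a long open reading frame. Some act in trans, as NORAD does by binding Pumilio proteins, which repress messenger RNAs. Others are made beside the start of a coding gene and may share its promoter, and a few that were first named as noncoding have since been found to encode small proteins. Many are made in few tissues and at low levels, so few reads stand behind each value.

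The 6 libraries separated by group along the first principal component over all tested genes, which held 66% of the variance. Silymarin replicate 2 stood apart along the second component, at 25.9 against -13.3 in both other silymarin libraries, and counts without it are given beside the results. Depth was 20240542 to 30279391 reads in the 5 libraries whose reads were recovered from the deposited values. All 8 keratinocyte markers, KRT5, KRT14 and TP63 among them, were measured, and their summed level was 291270 to 298900 normalized counts with TGF-β1 alone and 173790 to 191580 with silymarin. Only 1 of 6 fibroblast (COL1A1), 1 of 5 melanocyte (PMEL) and 1 of 3 matched endothelial (VWF) markers were measured, while DCN, TYR and SOX10 were at 0 in all libraries. The summed fibroblast list was 3333 to 3508 with TGF-β1 alone and 1715 to 2048 with silymarin, the melanocyte list 77.8 to 83.9 and 70.1 to 91.9, and the endothelial list 92.4 to 96.4 and 55.8 to 93.5. The part of these shifts in the results below was not tested.

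Among the 86 measured LINC genes, 25 were lower and 11 higher with silymarin at a limma adjusted p under 0.05, and 50 did not pass. The called share was 41.9%, beside 34.2% of the 17296 genes tested, with 29.1% of the LINC genes lower (18.2% of all tested genes) and 12.8% higher (16.0%). The median log2 fold change was -0.03 for the LINC genes and 0.0044 for all tested genes. Changes of at least 2-fold were called for 11 LINC genes (12.8%, beside 4.42% of all tested genes), of which 9 were lower. The median level was 60.6 normalized counts for the LINC genes and 393 for all tested genes. In size, the median log2 fold change was 0.545 for LINC genes with a mean under 50 and 0.289 for the others. The share of 2-fold changes was not compared at matched level. Leaving out the genes that met the minimum in 1 group only, described below, 22 of 82 were lower, and 8 changes of at least 2-fold remained, 6 of them lower. The groups did not overlap for 41 LINC genes (47.7%, beside 47.1% of all tested genes), 26 of them lower (30.2%, beside 24.1%) and 15 higher (17.4%, beside 23.1%). Without silymarin replicate 2 there were 25 lower LINC genes, 22 of them also lower in all 6 libraries, and 10 higher ones. In that fit 40.7% of the LINC genes and 41.8% of all tested genes were called, so the higher called share of the LINC genes was not seen there. Without TGF-β1 replicate 1 there were 24 lower and 7 higher LINC genes, 36.0% in all, beside 27.0% of all tested genes. In bulk RNA, fewer cells that express a gene and less of its RNA per cell cannot be told apart.

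The rule for measured genes used these same values as a minimum, and for 4 genes it bears on the comparison. LINC00607, LINC00346 and LINC00322 reached 10 in TGF-β1 libraries only, and LINC00272 in silymarin libraries only, so a difference was built into their choice. Their values are a description. Among called genes, LINC00589 and LINC00866 reached 10 in all 3 TGF-β1 libraries but in only 1 silymarin library. The minimum bears on them too, and they are counted among the 6 falls of at least 2-fold that remained. Just inside the minimum, by the third highest of their 6 values, stood LINC00272 (10.4), LINC00426 (10.6) and LINC00562 (10.9). Just outside were the genes listed as LINC00539 (9.97), LINC00594 (8.09) and LINC00478 (7.96). The measured gene listed as LINC00422 is a separate entry that now carries the symbol LINC00539.

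**Figure D1:**
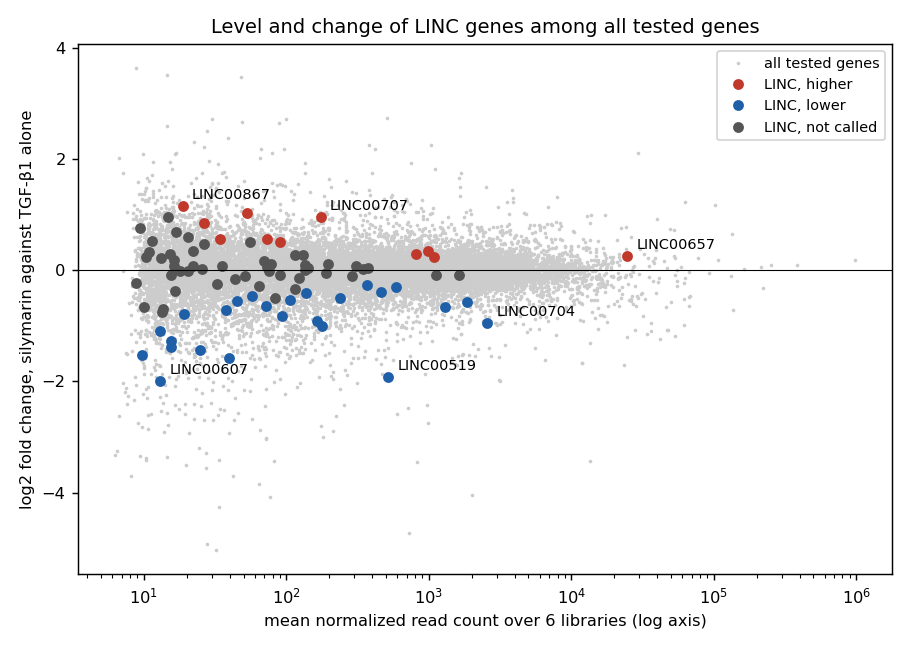
Mean normalized read count over 6 libraries (x, log axis) against log2 fold change of TGF-β1 plus silymarin over TGF-β1 alone (y), for all 17296 tested genes (grey) and the 86 LINC genes (red higher, blue lower, dark grey not called). Most LINC genes lie at the left, with LINC00657 alone near 24642 normalized counts and LINC00519 far below the grey band at its level.

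Their levels spanned a wide range. The mean over all libraries ran from 8.8 to 24642 normalized counts with a median of 60.6, and 39 of the 86 lay under 50. The coefficient of variation between replicates had a median of 19.3% in the TGF-β1 group and 24.2% in the silymarin group for those 39 genes. For the 11 genes with a mean of at least 500 it was 2.97% and 6.18%. The called genes were 13 of 39 genes under 50 (33.3%, beside 19.7% of all tested genes in that range), 14 of 36 genes from 50 to under 500 (38.9%, beside 35.5%) and 9 of 11 genes at 500 or more (81.8%, beside 40.2%).

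LINC00519 showed the deepest fall among LINC genes with a mean of at least 50. It is an intergenic gene on the minus strand of chromosome 14 (51304416 to 51328386, GRCh38) with no role known well enough to state here. Normalized counts were 812, 835 and 822 with TGF-β1 alone and 200.2, 259 and 195 with silymarin. Every silymarin library lay far below every TGF-β1 library, and the silymarin mean was 26.5% of the TGF-β1 mean. In the limma fit the log2 fold change was -1.92 (SE 0.099, adjusted p = 8.7e-09). Its neighbour LINC00640 starts on the other strand and runs the other way (51333393 to 51365557). It stood at 132, 114 and 128 without and at 82.1, 87.9 and 87.4 with silymarin, and the groups did not overlap. That fall was smaller, with a log2 fold change of -0.53 (SE 0.12, adjusted p = 0.0031). The coding gene that starts nearest to both is TMX1, a thioredoxin-like protein of the endoplasmic reticulum, 88224 bases from the start of LINC00519. TMX1 was not called, at a log2 fold change of -0.0091 (adjusted p = 0.957), but it passed without silymarin replicate 2 (adjusted p = 0.0162).

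The start regions of these neighbours are shown because they lie close together and fell by different amounts. Each window holds 250 bases before and 50 after the RefSeq start (GRCh38.p14), and capitals mark matches to the motifs searched. In LINC00519 a match to TGANTCA, the pattern searched for AP-1 with any base at N, begins 12 bases before the start. It overlaps a TGACNNNGC match, the antioxidant response motif. In LINC00640 both matches are to TGATGNAAN, the amino acid response motif, 1 on each strand.
LINC00519, minus strand, chr14:51328336-51328635: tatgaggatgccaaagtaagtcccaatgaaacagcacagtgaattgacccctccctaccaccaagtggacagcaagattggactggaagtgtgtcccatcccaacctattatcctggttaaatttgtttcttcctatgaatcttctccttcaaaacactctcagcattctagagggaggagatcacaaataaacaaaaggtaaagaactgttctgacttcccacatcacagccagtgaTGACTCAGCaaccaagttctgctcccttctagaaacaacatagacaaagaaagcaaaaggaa
LINC00640, plus strand, chr14:51333143-51333442: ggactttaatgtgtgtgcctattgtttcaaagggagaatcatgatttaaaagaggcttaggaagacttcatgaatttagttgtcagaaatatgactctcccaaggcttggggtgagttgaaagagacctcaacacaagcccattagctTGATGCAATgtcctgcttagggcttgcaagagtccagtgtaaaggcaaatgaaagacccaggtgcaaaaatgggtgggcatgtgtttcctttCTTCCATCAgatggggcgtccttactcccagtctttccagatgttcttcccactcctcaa

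LINC00704 (now MANCR, the mitotically associated long noncoding RNA) had the most reads of the genes that fell. It lies on the minus strand of chromosome 10 (4650185 to 4678154). The TGF-β1 libraries held 3345, 3258 and 3561 normalized counts and the silymarin libraries 1723, 1808 and 1715, so the groups stood well apart. The log2 fold change was -0.95 (SE 0.053, adjusted p = 1.8e-08). Per kilobase of exonic length it had 1760 normalized counts with TGF-β1 alone and 911 with silymarin, next after LINC00657 among LINC genes in TGF-β1 alone. LINC00705 overlaps it on the opposite strand and had 17.7, 23.6 and 32.4 without and 17.5, 11.5 and 12.1 with silymarin. Its call was marginal (log2 fold change -0.78, adjusted p = 0.0491) and ended when TGF-β1 replicate 2 or 3, or silymarin replicate 2 or 3, was left out (adjusted p = 0.113, 0.22, 0.0855 and 0.108). The library kit keeps strand, but no source used here says whether the counting did, and the pair may share reads.

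The start region of MANCR is shown because it holds 2 matches to TGANTCA, which read TGAATCA and TGAGTCA. The TGAGTCA match, nearer the start, overlaps an antioxidant response match. RefSeq places this start downstream of the one in GENCODE 29, and the last 30 bases of the window are not part of a GENCODE 29 transcript of the gene.
LINC00704 (MANCR), minus strand, chr10:4678021-4678320: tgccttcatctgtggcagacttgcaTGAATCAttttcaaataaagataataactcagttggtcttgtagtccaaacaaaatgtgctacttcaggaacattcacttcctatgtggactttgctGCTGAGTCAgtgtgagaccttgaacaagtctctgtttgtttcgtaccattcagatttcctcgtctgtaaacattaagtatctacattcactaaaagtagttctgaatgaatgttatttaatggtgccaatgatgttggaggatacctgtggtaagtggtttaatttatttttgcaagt

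Other LINC genes with a mean of at least 50 that fell form a graded series. LINC00113 on chromosome 21 went from 265, 220.2 and 228 to 111, 129 and 114 (log2 fold change -1.004, SE 0.11, adjusted p = 1.0e-05). LINC00319 went from 202, 224 and 218 to 113, 90.5 and 142, and its log2 fold change was -0.92 (SE 0.14). LINC00475, which GENCODE 29 types as a transcribed pseudogene, stood at 132, 109 and 118 without and at 62.4, 67.5 and 70.1 with silymarin. In each of these genes the lowest TGF-β1 library lay above the highest silymarin library. LINC00511, reported in several tumour types, had 1548, 1607 and 1613 and then 967, 962 and 1079 normalized counts, a log2 fold change of -0.67 (SE 0.061, adjusted p = 2.0e-06). LINC00578 and LINC00324 had log2 fold changes of -0.64 and -0.50 (adjusted p = 0.00503 and 0.00179). OLMALINC, listed as LINC00263, fell by 0.57 on the log2 scale, from 2258, 2125 and 2221 to 1513, 1480 and 1445 (SE 0.052, adjusted p = 1.9e-06).

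Falls of at least 2-fold were also called at low levels, where each value rests on few reads. LINC00865 on chromosome 10 had 46.9, 69.8 and 61.7 without and 20.8, 26.8 and 12.1 with silymarin (log2 fold change -1.58, SE 0.26, adjusted p = 0.000433). LINC00479 on chromosome 21 went from 35.4, 39.0 and 35.4 to 9.85, 16.6 and 13.0 (-1.44, SE 0.24, adjusted p = 0.000432). Neither gene had overlapping groups. LINC00589 on chromosome 8 and LINC00866, the divergent transcript of GOLGA7B, had log2 fold changes of -1.28 and -1.09 (adjusted p = 0.00543 and 0.0158), the call of LINC00866 being lost without TGF-β1 replicate 3 (adjusted p = 0.072). Among the genes chosen through the TGF-β1 libraries alone, LINC00607 had 18.6, 23.6 and 21.2 and then 2.19, 7.65 and 5.19. LINC00346, now PRECSIT, a p53-regulated RNA described in cutaneous squamous carcinoma, had 12.4, 15.4 and 17.2 and then 5.47, 3.82 and 4.33. LINC00322 had 22.1, 26.3 and 20.2 and then 7.66, 8.92 and 7.79.

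**Figure D2:**
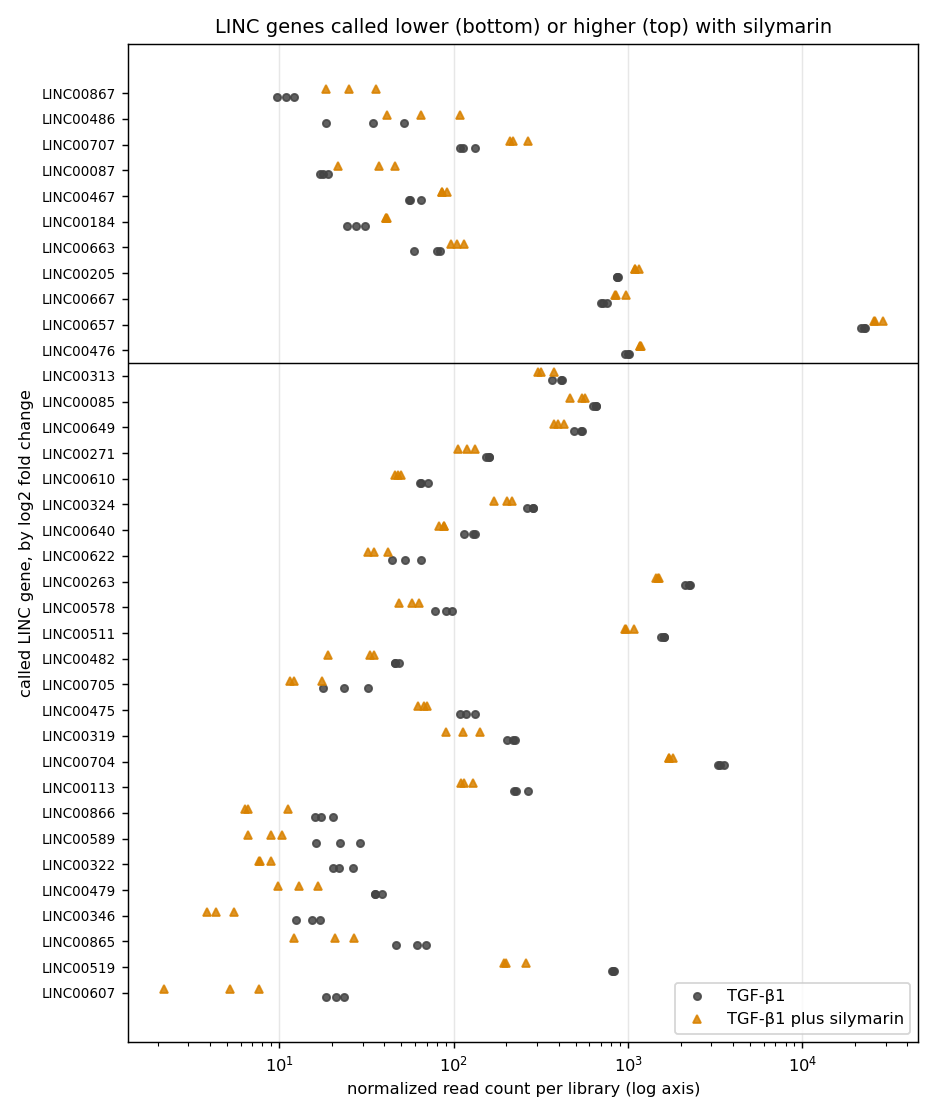
Normalized read count of each library (x, log axis) for the 36 called LINC genes (y, ordered by log2 fold change), with circles for the 3 TGF-β1 libraries and triangles for the 3 libraries with silymarin. The groups overlap only for LINC00313 and LINC00486, and LINC00519 and LINC00704 show the widest gaps for their spread.

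LINC00657, now named NORAD, rose by a small but tight margin. It lies on the minus strand of chromosome 20 (36045622 to 36050960) and had 22928, 22523 and 21770 normalized counts with TGF-β1 alone and 26001, 28793 and 25836 with silymarin. The groups did not overlap, and silymarin replicate 2 was the highest library. The log2 fold change was 0.26 (SE 0.052, adjusted p = 0.00161), and it ran from 0.21 to 0.29 over the fits that left out 1 library. This gene outweighed all other LINC genes in reads. Without it, the other 85 summed to 20482 to 20851 normalized counts with TGF-β1 alone and to 16685 to 16967 with silymarin. With it, the sums were 42621 to 43409 and 42802 to 45478, so the groups overlapped.

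NORAD is known for repeated Pumilio response elements, and its sequence shows them plainly. The GENCODE 29 transcript of 5339 bases held 15 matches to TGTANATA on the sense strand and 1 to the reverse complement. The longest transcripts of the 82 LINC genes with a sequence were searched in the same way: 69 held no match, 11 held 1 and LINC00667 held 2. Some of the elements are shown with 10 bases on either side and the element in capitals. Those at positions 1241 and 1825 have similar bases on both sides.
NORAD, element at position 1140: ctcactactgTGTATATAgttgacaatg
NORAD, element at position 1442: tacttatctgTGTATATAgtgtacataa
NORAD, element at position 2972: aaccctactgTGTATATAgcggacaaac
NORAD, element at position 3275: tactgtgctgTGTATATAgtgtatataa
NORAD, element at position 1241: aatcacatttTGTAAATAcctttttgtt
NORAD, element at position 1825: aataccacttTGTAAATAtctttttgct

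LINC00707, reported in several tumour types, gave the largest rise among LINC genes with a mean of at least 50 and groups that did not overlap. It lies on chromosome 10 (6779549 to 6879450). Normalized counts were 133, 109 and 113 without and 211, 218 and 266 with silymarin, a 1.96-fold difference of means. Its log2 fold change was 0.96 (SE 0.12, adjusted p = 3.2e-05). LINC00867, a low-level gene of the same chromosome, had 9.72, 10.9 and 12.1 and then 18.6, 35.7 and 25.1 (log2 fold change 1.16, SE 0.28, adjusted p = 0.00601). LINC00486 had the only other rise of at least 2-fold, but its groups overlapped at 18.6, 34.4 and 51.6 against 41.6, 108 and 64.9 (adjusted p = 0.037). Leaving out TGF-β1 replicate 1 or 2, or silymarin replicate 2 or 3, ended the call (adjusted p = 0.1535, 0.0747, 0.0832 and 0.0544).

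Smaller rises were tight in genes with many reads. LINC00205 had 868, 874 and 862 and then 1089, 1088 and 1158 normalized counts (log2 fold change 0.36, SE 0.057, adjusted p = 0.000304). LINC00476, the antisense gene of ERCC6L2, had 961, 1001 and 1018 and then 1170, 1179 and 1166 (0.24, SE 0.055). LINC00667 had 720, 699 and 762 and then 978, 842 and 849 (0.29, SE 0.072). All silymarin libraries lay above all TGF-β1 libraries in these genes. LINC00467, a gene on chromosome 1 reported to encode a small mitochondrial protein, had 64.5, 56.2 and 55.6 and then 85.3, 91.8 and 85.7 (0.57, SE 0.13, adjusted p = 0.00499). LINC00663 rose as well (0.51, adjusted p = 0.0181), a call lost without TGF-β1 replicate 1 or silymarin replicate 3 (adjusted p = 0.0893 and 0.0605).

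Calls of 10 of the 36 genes did not hold in every fit that left out 1 library, and the values for 5 of them are given here. LINC00184 rose by 0.57 on the log2 scale (adjusted p = 0.0293), with an adjusted p of 0.0691 and 0.103 without TGF-β1 replicate 1 or 3 and of 0.0754 and 0.0624 without silymarin replicate 1 or 3. LINC00482 fell by 0.72 (adjusted p = 0.0242), with 0.0567, 0.0652 and 0.076 without TGF-β1 replicate 1, 2 or 3 and 0.0705 when silymarin replicate 2 was left out. LINC00610 had -0.47 (adjusted p = 0.0223), with 0.0587 and 0.0872 without TGF-β1 replicate 2 or 3 and 0.0635 when silymarin replicate 1 was left out. For LINC00622 the value was -0.55 (adjusted p = 0.0398), with 0.0939 and 0.18 without TGF-β1 replicate 2 or 3 and 0.0906 and 0.109 without silymarin replicate 1 or 3. The smallest fall was that of LINC00313 (-0.26, adjusted p = 0.0444), with 0.145 and 0.167 without TGF-β1 replicate 2 or 3 and 0.06 and 0.106 without silymarin replicate 2 or 3. The other 26 called genes passed in all 6 such fits.

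The 50 genes that did not pass had log2 fold changes from -0.76 (LINC00115) to 0.95 (LINC00525), and 7 of them passed in some fit that left out 1 library. LINC00525 had 5.30, 14.5 and 10.1 and then 13.1, 19.1 and 26.8 normalized counts (adjusted p = 0.0627), and passed without TGF-β1 replicate 2 or silymarin replicate 1 (adjusted p = 0.035 and 0.037). LINC00243 had 107, 116 and 70.8 and then 54.7, 79.0 and 71.0 (log2 fold change -0.50, adjusted p = 0.0593), and passed without TGF-β1 replicate 3 or silymarin replicate 2 (adjusted p = 0.0101 and 0.0135). The groups of both genes overlapped. LINC00115 and LINC00849 passed without silymarin replicate 2 (adjusted p = 0.0241 and 0.0305), LINC00265 without TGF-β1 replicate 2 (adjusted p = 0.0338) and LINC00284, now NRAD1, without silymarin replicate 1 (adjusted p = 0.0451). LINC00672 is described with the coding genes.

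Of 32 LINC genes listed for a reported role, 14 were measured: 5 rose, 4 fell and 5 did not pass, with a median log2 fold change of 0.052. Of all tested genes 16.0% were higher and 18.2% lower. LINC00657, LINC00707, LINC00467, LINC00667 and LINC00205 rose, while LINC00511, LINC00704 and LINC00263 fell. The other lower call was LINC00346, which met the minimum in TGF-β1 libraries only. CYTOR, the cytoskeleton regulator RNA listed as LINC00152, had 198, 188 and 182 and then 197, 194 and 225 normalized counts. Its groups overlapped, and its log2 fold change of 0.11 (SE 0.096) did not pass (adjusted p = 0.405). Reads of CYTOR may be shared with its near-identical copy, the host gene of MIR4435-2. LINC00662, LINC00665, LINC00472 and LINC00304 had log2 fold changes of 0.024, -0.0027, 0.081 and -0.017, with SE of 0.096, 0.12, 0.32 and 0.27, and did not pass.

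In 8 of the measured genes the identifier now belongs to a protein-coding gene: 1 rose, 1 fell and 6 did not pass. Among all tested genes, 16.0% were higher and 18.2% lower. The genes of the small mitochondrial proteins SMIM26 (LINC00493) and mitoregulin (MTLN, LINC00116) stayed close to their TGF-β1 level. SMIM26 had 1161, 1206 and 1102 and then 1081, 1113 and 1090 normalized counts (log2 fold change -0.079, SE 0.057). MTLN had 139.7, 138 and 145 and then 144, 144 and 147 (0.045, SE 0.098). LINC00085, which is SPACA6, a gene of the sperm acrosome, fell from 631, 651 and 656 to 542, 465 and 563 (-0.31, SE 0.078, adjusted p = 0.00749). LINC00087, which is SMIM10L2B, had 17.7, 19.03 and 17.2 and then 46.0, 21.7 and 37.2 (0.86, adjusted p = 0.0232). Silymarin replicate 2 was much nearer to the TGF-β1 libraries than the other silymarin libraries were. The call ended in every fit that left out 1 library other than silymarin replicate 2 (adjusted p = 0.0553, 0.05002, 0.0658, 0.117 and 0.0683). BRD3OS (LINC00094), C20orf204 (LINC00176) and CCDC200 (LINC00854) had log2 fold changes of -0.089, -0.15 and 0.52 and did not pass. LASP1NB (LINC00672) had 0.51 (adjusted p = 0.137), and passed without silymarin replicate 3 (adjusted p = 0.0374).

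The position of 82 of the 86 genes was found by identifier in GENCODE 29, and the coding gene that starts nearest was tested for 69 of them. Of 32 called LINC genes with a tested neighbour, 17 had a neighbour that was itself called, beside 38.3% of the protein-coding genes tested. The direction was the same for 8 pairs and opposite for 9. The 17 pairs held 14 different coding genes, since SIK1 was nearest to 3 LINC genes and AKR1E2 to 2, and the 9 opposite pairs held 6. A coding gene started within 5 kb of 11 LINC genes, and 8 of these coding genes were tested. ERCC6L2, a helicase-like repair gene whose start lies 276 bases from that of LINC00476 on the opposite strand, rose by 0.34 (SE 0.052, adjusted p = 0.000206) beside the rise of 0.24 of LINC00476. Their exons overlap, so reads may be shared. GOLGA7B and LINC00866 diverge from starts 441 bases apart, with log2 fold changes of -0.23 and -1.09. The call of GOLGA7B (adjusted p = 0.04) held without silymarin replicate 1 (adjusted p = 0.04996) and was lost without each other library (adjusted p = 0.0576 to 0.157). ANXA11, the annexin gene 2138 bases from LINC00857, rose by 0.17 (adjusted p = 0.0145), but passed in only 1 of 6 left-out fits, that without silymarin replicate 2 (adjusted p = 3.4e-05), and had adjusted p of 0.0504 to 0.0657 in the others. LINC00857 itself had a log2 fold change of 0.47 and did not pass (adjusted p = 0.145).

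LINC genes also changed where the adjoining coding gene was not called. LINC00205 and POFUT2, the gene of a protein O-fucosyltransferase, diverge from starts 152 bases apart. POFUT2 stood at 971 ± 20.1 without and 944 ± 68.4 with silymarin (SD, n = 3; log2 fold change -0.043, SE 0.065, adjusted p = 0.655), while LINC00205 rose. LINC00271, now AHI1-DT, starts 25 bases from AHI1, a gene of the primary cilium, and fell by 0.41 (SE 0.11, adjusted p = 0.0122). AHI1 went from 401 ± 42.5 to 435 ± 71.4, a log2 fold change of 0.11 (SE 0.11, adjusted p = 0.495). Whether the members of each pair differ from each other was not tested. The start region of LINC00205 is shown as an example of a shared start, with its 6 matches to the GC box GGGCGG in capitals on either strand.
LINC00205, plus strand, chr21:45287802-45288101: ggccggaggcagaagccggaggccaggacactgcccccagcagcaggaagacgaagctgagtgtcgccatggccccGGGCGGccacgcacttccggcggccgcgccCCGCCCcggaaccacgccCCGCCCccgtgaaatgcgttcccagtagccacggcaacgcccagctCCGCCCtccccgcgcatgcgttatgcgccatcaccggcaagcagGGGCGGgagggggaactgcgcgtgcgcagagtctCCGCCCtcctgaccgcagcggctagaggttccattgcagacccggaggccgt

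Farther apart, several pairs moved in opposite directions. OLMALINC fell, while SCD, the stearoyl-CoA desaturase gene that starts 26389 bases away on the same strand, rose (103750 ± 2367 without and 162860 ± 7643 with silymarin, SD, n = 3; log2 fold change 0.65, SE 0.053, adjusted p = 7.7e-07). LINC00319, LINC00313 and LINC00322 all lie nearest to the start of SIK1, a salt-inducible kinase gene, at 19412, 52345 and 95150 bases. SIK1 rose by 0.19 (SE 0.048, adjusted p = 0.00633), against log2 fold changes of -0.92, -0.26 and -1.38. AKR1E2, an aldo-keto reductase gene 108475 bases from MANCR, rose by 0.94 (SE 0.17, adjusted p = 0.000893). In the same direction, AURKB, a mitotic kinase gene 13443 bases from LINC00324, fell from 160 ± 4.65 to 91.9 ± 20.3 (-0.82, SE 0.15, adjusted p = 0.000858). RIPK4, a kinase gene of keratinocyte differentiation 51331 bases from LINC00479, fell by 0.24 (SE 0.057, adjusted p = 0.00568). LINC00113 has no nearer coding gene than ADAMTS5, a gene of an aggrecan-cleaving protease, 755866 bases away, which had a log2 fold change of -4.08 (SE 0.26). KRT80, a keratin gene 27885 bases from LINC00592, rose by 0.86 (SE 0.074), while LINC00592 stood at 15.9, 14.5 and 17.2 and then 18.6, 15.3 and 16.4.

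**Figure D3:**
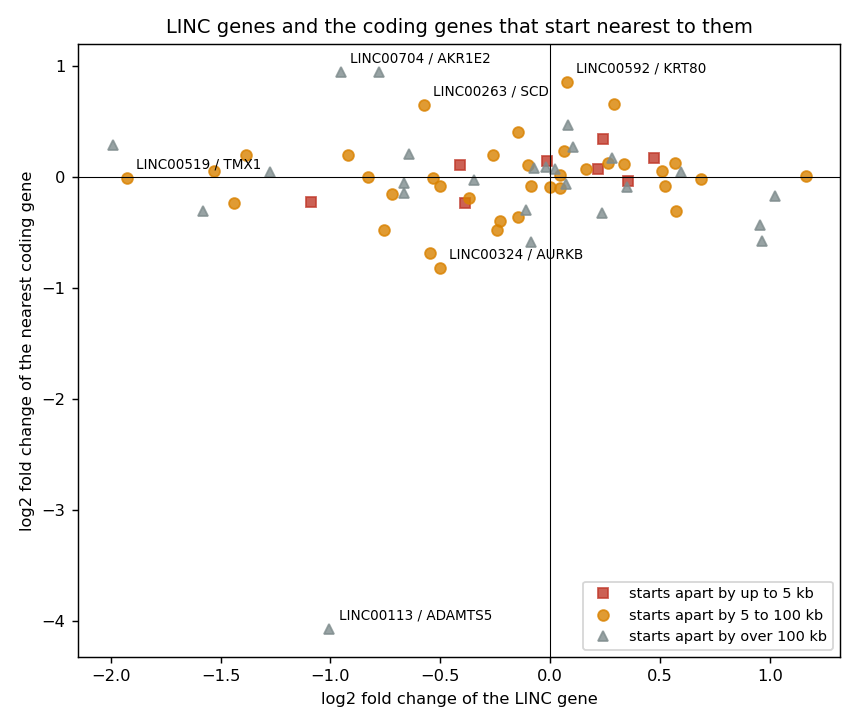
Log2 fold change of each LINC gene (x) against that of the coding gene that starts nearest to it (y), for the 69 LINC genes with a tested neighbour, by distance between starts (squares up to 5 kb, circles 5 to 100 kb, triangles over 100 kb). Most coding genes lie near 0 across the range of the LINC genes, and LINC00113 with ADAMTS5 lies alone at the bottom.

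By chromosome, the calls were uneven, a pattern noted after the values were seen and not tested. On chromosome 21, 6 of 8 LINC genes were called lower (18.2% of all tested genes were), and LINC00205 rose. Of the 6, LINC00322 met the minimum in TGF-β1 libraries only, and LINC00313 lost its call in 4 of 6 left-out fits. LINC00319, LINC00313 and LINC00322 all have SIK1 as their nearest coding gene, so the 6 are not all at separate places. LINC00114 there had a log2 fold change of -0.37 and did not pass. Chromosome 10 held 10 measured LINC genes, of which 5 fell and 2 rose (beside 18.2% and 16.0% of all tested genes, on any chromosome). Among those falls, LINC00705 lost its call in 4 of 6 left-out fits and LINC00866 in 1. LINC00705 overlaps LINC00704, another of those falls, and the pair may share reads. Of the 10 on chromosome 13, 1 was called lower (LINC00346, measured through the TGF-β1 libraries only) and none rose, beside the same shares. The median level of that group was 13.4 normalized counts, against 171 on chromosome 21 and 57.4 on chromosome 10, and the part of level in this pattern was not tested.

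**Figure D4:**
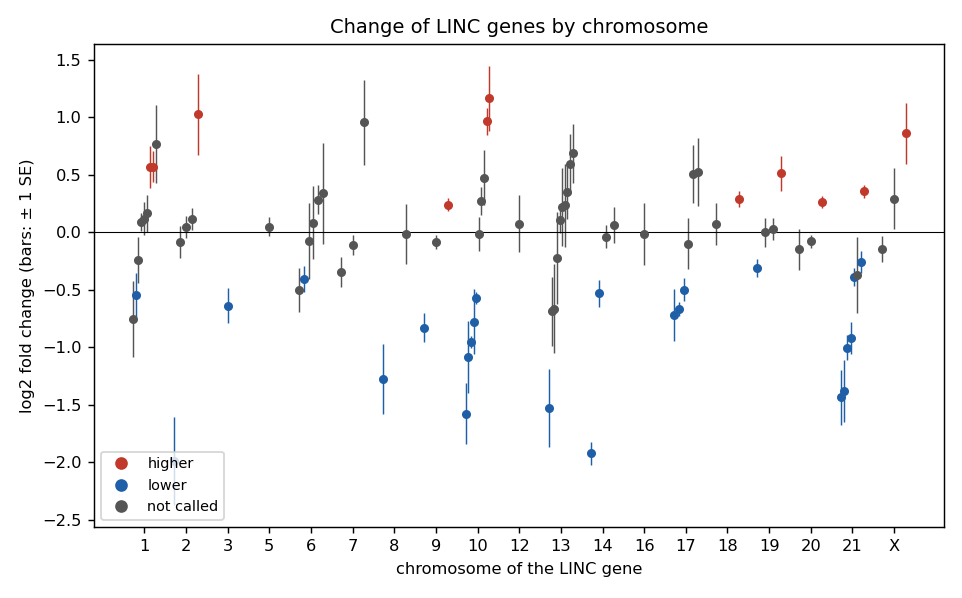
Log2 fold change with silymarin (points, bars ± 1 SE) of the 82 LINC genes with a known position, by chromosome (red higher, blue lower, grey not called). Blue points gather on chromosomes 10 and 21, and the grey points of chromosome 13 have long error bars.

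RefSeq start regions of 300 bases were found for 62 of the 86 genes and compared with those of 27305 genes, on both strands. TGANTCA, searched for AP-1 with any base at N, occurred in 11 of 62 (17.7%, beside 7.76% of all). It was in 1 of 7 of the called higher genes (LINC00486) and 5 of 18 of the called lower genes. These were LINC00519, LINC00704 and LINC00263, with LINC00607 and LINC00346, which met the minimum in TGF-β1 libraries only. The antioxidant response motif TGACNNNGC occurred in 27.4% beside 13.6%, and the GC box GGGCGG in 27.4% beside 44.6%. TATAAA, the TATA box, was found in 9.68% beside 11.95%, CACGTG, an E-box, in 8.06% beside 7.43%, and TGATGNAAN in 4.84% beside 3.67%. The cyclic AMP response motif TGACGTCA was found in 4.84% beside 1.98%, and TGACGTNA, which includes it, in 4.84% beside 3.18%. These matches describe the letters in the windows and are not evidence of binding.

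Other long noncoding RNAs set the LINC genes in context. Of 2293 tested genes that GENCODE 29 types as long noncoding, LINC-numbered ones left out, 28.5% were called, against 38.3% of 12609 protein-coding genes. The median level was 43.1 normalized counts for these long noncoding genes and 728 for the protein-coding genes. Among all tested genes, 19.7% were called at a mean under 50 and 40.2% at a mean of at least 500. The called shares of long noncoding and protein-coding genes were not compared at matched level, so the part of level in their difference was not tested. Of 76 listed lncRNAs with names of their own, 44 were measured: 14 rose, 9 fell and 21 did not pass, with a median log2 fold change of 0.096. Their median level was 675 normalized counts. Of all tested genes 16.0% were higher and 18.2% lower, at a median level of 393. NEAT1, the scaffold of nuclear paraspeckles, rose by 1.17 (SE 0.048, limma adjusted p = 1.0e-09) and UCA1 by 1.32. MIR205HG, the host gene of an epithelial miRNA, fell by 1.05, and TINCR, an RNA of keratinocyte differentiation, fell by 0.71.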

How the data were processed

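Polyadenylated RNA of 6 HaCaT libraries, 3 per group, was sequenced with a stranded kit, per the labels. The authors deposited 1 table of normalized read counts, a signal per gene that was read counts divided by 1 factor per library, as its values show. The submitters' processing notes name TopHat2 2.1.1, Subread 1.5.2 with featureCounts, DESeq2, cutadapt 1.15 and bcl2fastq 2.18.12, with no role or order. The genome build and the strand setting are not given in the sources used here. Divided by its smallest value above 0, each column gave whole numbers for 100% of genes (within 1e-06 reads). In TGF-β1 replicate 3 that step, 1.01, lay near 1. Its reads were not accepted in a check of the recovered reads, although its multiples were whole too. The count tests (edgeR 4.0.16, DESeq2 1.42.0) used the other 5 libraries and are alternatives only.

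Genes with a value of at least 10 in at least 3 libraries were tested with limma 3.58.1 (R 4.3.3, trended prior) on log2(value + 1), fitting only the group, with Benjamini-Hochberg adjustment over all 17296 genes. A gene was called at an adjusted p under 0.05. Every adjusted p is from limma unless another tool is named. Log2 fold changes are silymarin plus TGF-β1 minus TGF-β1 on the log2(value + 1) scale, which understates changes of low genes. The fit was run on simulated data in which only genes with a mean of at least 50 were changed. It recovered 96 of 100 changes of 1.5-fold and 100 of 100 of 2-fold. Of its calls, 7.98% were unchanged genes. Recovery of changes in genes under 50 was not tested.

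The LINC genes, the lists and the tests were chosen with earlier results of these data known. Genes were named if called at 2-fold or more without overlap, among the 10 largest called rises or falls with a mean of at least 50, among the 10 highest means, on the list of reported roles, now coding, at the edge of the minimum, or within 5 kb of a called coding gene, and nearest coding genes were named beside them. LINC genes whose call changed when 1 library was left out, those noted by chromosome and the other lncRNAs were named after their values were seen. Positions come from GENCODE 29 (GRCh38), matched by identifier without version for 82 genes, 22 of them in the same version. Start regions come from RefSeq (GRCh38.p14). Alternatives were other scalings, filters, pseudocounts and thresholds, a replicate block, libraries left out in turn and the count tests. A further list of cell type markers is not reported here.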

Additional observations from a re-analysis of the deposited data

How the results depend on the processing

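The counts of called LINC genes, 11 higher and 25 lower, changed as follows. Higher calls numbered 7 with DESeq2 on the reads of 5 libraries and 7 at an adjusted p under 0.01, against 10 with edgeR. Lower calls numbered 15 with DESeq2, 20 with edgeR, 18 at an adjusted p under 0.01 and 15 with a minimum of 50 in 3 libraries, which left 46 LINC genes to test. Leaving out 1 library at a time gave 7 to 10 higher and 20 to 25 lower calls. Over all genes, 5912 calls became 3861 at an adjusted p under 0.01, 3709 with DESeq2 and 4647 with edgeR. Those count tests left out TGF-β1 replicate 3, and limma without that library gave 4444 calls, with 9 higher and 20 lower LINC genes. Without silymarin replicate 2, 7227 genes were called, and the called share was 41.8% of all genes and 40.7% of the LINC genes. TMM or library-size scaling, pseudocounts of 0.1 and 10, no filter and a minimum mean of 10 gave 10 to 12 higher and 22 to 25 lower calls. Scaling each library to the same total moved the split of all calls from 2764 higher and 3148 lower to 3099 and 2918. A replicate block gave 12 higher and 25 lower calls, of which 11 and 23 were among the calls without the block. Deviations of same-numbered libraries correlated at -0.0392, 0.0422 and 0.0229, and not every library correlated best with its own number, so the numbers were not taken to pair the libraries. The call was the same in every setting that tested the gene for 6 of the 11 higher, 14 of the 25 lower and 42 of the 50 uncalled LINC genes, and no named LINC gene changed direction while called. Genes near 10 normalized counts rest on few reads, and a missed call there does not show that a gene did not change.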
